A study of Mus musculus with 6 samples.

Results

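Toll-like receptors and their adaptors were examined in RNA-seq of mouse adult fibroblasts (MAFs). The group holds the receptor genes *Tlr2*, *Tlr3*, *Tlr4*, *Tlr5* and *Tlr6*, the co-receptor genes *Cd14* and *Ly96*, the adaptor genes *Myd88* and *Ticam1*, and *Irak3*, a brake on the pathway. Members were found by gene name in the deposited table, and all 10 were present among its 43346 genes. MAFs are primary cells; these were cultured from ear tissue of female C57BL6/J mice and grown at 3% oxygen. The 3 control samples were sham irradiated, and the 3 senescent samples were irradiated with 20 Gy of x-rays and then kept in culture for weeks. The methods state no such time for the control samples, so time in culture may also differ between the groups. Both groups were treated with 100 nM dexamethasone, a glucocorticoid that synchronizes circadian clocks, for 2 hours, and RNA was collected 12 hours later. Dexamethasone was therefore shared by all samples, the values come from 1 time point, and no source states whether replicates were separate cultures or animals, so p-values may measure technical spread only. The comparison asked how RNA of the pathway differed between control and senescent MAFs.

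Toll-like receptors are membrane proteins that recognize microbial products and molecules released from damaged cells. TLR2, TLR4, TLR5 and TLR6 sit at the cell surface, where TLR2 pairs with TLR1 or TLR6 to bind lipopeptides, TLR4 binds lipopolysaccharide together with MD-2 (the product of *Ly96*) and CD14, and TLR5 binds flagellin. TLR3 binds double-stranded RNA in endosomes. Most receptors signal through MYD88 to IRAK kinases and NF-kB, whereas TLR3 uses TRIF (the product of *Ticam1*) to reach interferon regulatory factors, and TLR4 uses both routes.

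Promoter sequences are shown first, because the study asked about E-box and AP-1 motifs. RefSeq windows of GRCm38.p6 (the assembly of mm10), from 250 bases before to 50 bases after a gene's start, matched 7 of the 10 members, 2 of them with 2 windows. *Tlr4*, *Cd14* and *Ly96* had no entry. Both strands were searched for AP-1 (TGACTCA), the E-box (CACGTG), the cAMP response element (TGACGTCA), NF-kB, the interferon-stimulated response element (GAAANNGAAA) and the glucocorticoid response element (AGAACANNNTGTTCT). No member's window held the AP-1, cAMP or glucocorticoid letters, which occurred in 5.20%, 1.79% and 0.0091% of 32851 windows. The E-box, in 7.15% of all windows, was found in *Ticam1* and in 1 of the 2 windows of *Irak3*, there just after the start. NF-kB letters, in 8.46% of all windows, were found in *Tlr2* and *Tlr3*, and the interferon-stimulated response element, in 3.44%, in *Myd88* and in 1 window of *Tlr6*. A match describes the letters only, and the study's BMAL1-ChIP-seq of matched samples was not analysed here. The sequences below hold these matches, other than that of *Irak3*, in capitals, and all are read from the minus strand. *Tlr2* and *Ticam1* are shown from the window's first base to the annotated gene, and the others as 30 bases around the match.
Ticam1, chr17:56276787-56277017, E-box: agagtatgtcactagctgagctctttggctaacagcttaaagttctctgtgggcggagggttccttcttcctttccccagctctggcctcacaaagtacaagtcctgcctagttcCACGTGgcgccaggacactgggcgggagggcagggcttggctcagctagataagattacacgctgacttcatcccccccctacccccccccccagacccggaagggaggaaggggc
Tlr2, chr3:83841768-83841858, NF-kB: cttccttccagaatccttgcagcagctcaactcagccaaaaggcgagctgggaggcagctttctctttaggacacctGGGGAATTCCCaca
Tlr3, chr8:45410572-45410601, NF-kB: agttgtttctGGGAGTTTCCtgcttttgag
Myd88, chr9:119340039-119340068, interferon-stimulated response element: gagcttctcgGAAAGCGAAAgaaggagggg
Tlr6, chr5:64959260-64959289, interferon-stimulated response element: ctattctTTTCTCTTTCACTTTCtgtttga
The capitals in *Tlr2* and *Tlr6* each cover 2 overlapping matches, and a further NF-kB match in *Tlr2*, which spans the RefSeq start inside the gene as the counts table bounds it, is not printed. The *Tlr3*, *Myd88* and *Tlr6* stretches lie inside the gene as the counts table bounds it, because RefSeq places those starts, like that of *Tlr2*, further downstream. The other RefSeq start of *Tlr6* is the same as that of the counted gene, and its window held none of the motifs.

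Libraries held between 50288454 and 82229553 counts, and every member had between 52 and 8420 counts in every library. Control and senescent libraries differed by a root mean square of 1.42 to 1.48 on the log2 scale over 17589 tested genes, and libraries of 1 group by 0.258 to 0.400, the largest being between senescent replicates 2 and 3. Fibroblast markers were abundant in both groups, with summed levels of 19433 to 21537 CPM in control and 7738 to 8917 CPM in senescent MAFs. CPM are TMM-scaled counts, divided by the library total and multiplied by 1e+06. In senescent MAFs 6 of 10 fell, among them *Col1a1*, *Col1a2*, *Col3a1* and *Pdgfra*. The 3 that rose were *Dcn*, *Thy1* and *Lum*, by 3.50, 1.47 and 0.85 on the log2 scale. Chondrocyte markers were also abundant in control MAFs, at 4825 to 5387 CPM in sum, against 319 to 394 CPM in senescent MAFs, and all 6 fell. In such bulk samples, fewer cells of a type and less RNA per cell cannot be told apart.

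Of the 10 members, 3 were higher and 3 lower in senescent MAFs at an adjusted p under 0.05, and 4 did not pass the test. *Tlr4*, *Cd14* and *Ly96*, which together make the lipopolysaccharide receptor, rose. *Tlr6* and both adaptors, *Myd88* and *Ticam1*, fell. *Tlr2*, *Tlr3*, *Tlr5* and *Irak3* did not pass. Among all tested genes, 70.3% were called at this threshold (36.2% higher and 34.1% lower), so the members' share of 60.0% was not above the background. The cutoffs in the study's methods are more than 2-fold, at a p under 0.05 before adjustment. By these, *Tlr4* was the only member called, against 30.1% of all tested genes. The paper's results section states another p cutoff for this comparison. Control and senescent levels did not overlap in 7 members, against 75.4% of all tested genes. The median log2 fold change was -0.07 over the members and 0.01 over all tested genes.

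**Figure D1:**
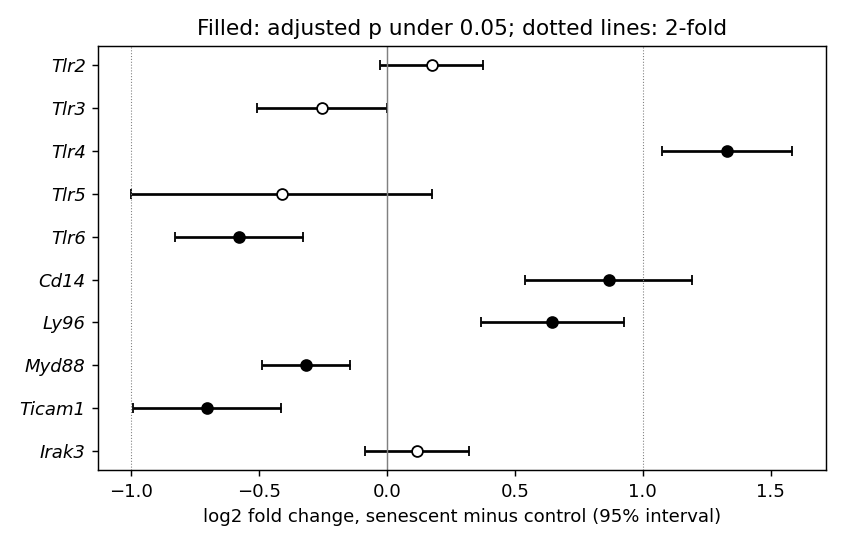
Log2 fold changes of the 10 members (senescent minus control, x axis) with 95% intervals from edgeR, 3 libraries per group. Filled points passed an adjusted p of 0.05, and *Tlr4*, at 1.33, is the only point beyond the dotted line of a 2-fold change.

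*Tlr4* (ENSMUSG00000039005, chromosome 4 of mm10 from 66827584 to 66930284) encodes the receptor for lipopolysaccharide. Its level was 34.7, 33.8 and 32.3 CPM in control replicates 1, 2 and 3 and 77.0, 76.3 and 99.7 CPM in senescent replicates 1, 2 and 3. All senescent libraries were above all control libraries, and senescent replicate 3 was the highest. With n = 3 per group, means were 33.6 ± 1.22 CPM in control and 84.4 ± 13.3 CPM in senescent MAFs (SD), and *Tlr4* rose by 1.33 ± 0.11 on the log2 scale (SE, adjusted p = 1.87e-05, edgeR). Leaving out any 1 library gave log2 fold changes from 1.20 to 1.40. The paper, from a separate RNA-seq of wild-type and *Bmal1* knockout cells, lists *Tlr4* differently. There it is among genes changed in senescent knockout cells but not called in senescent wild-type cells. That RNA-seq used another library preparation and another test, and it was not analysed here.

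*Ly96* (ENSMUSG00000025779, chromosome 1 from 16688051 to 16709611) encodes MD-2, the subunit that holds the lipid part of lipopolysaccharide. It was at 5.75, 5.59 and 4.72 CPM in control replicates 1, 2 and 3 and at 8.02, 7.64 and 9.45 CPM in the senescent replicates in the same order. The groups did not overlap, and the log2 fold change was 0.65 ± 0.12 (SE, adjusted p = 0.00169, edgeR). *Cd14* (ENSMUSG00000051439, chromosome 18 from 36725074 to 36726736) encodes the surface protein that hands lipopolysaccharide to TLR4 and MD-2. It was at 2.49, 3.21 and 2.57 CPM in control and at 5.25, 5.51 and 4.41 CPM in senescent MAFs. Every senescent library was again above every control library, though senescent replicate 3, the highest for *Tlr4* and *Ly96*, was the lowest senescent library for *Cd14*. The log2 fold change of *Cd14* was 0.87 ± 0.14 (SE, adjusted p = 0.000804, edgeR).

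Macrophages and monocytes also express *Tlr4*, *Cd14* and *Ly96*, and most of their tested markers rose too, at low levels. Senescent libraries held a count for 25034 to 26281 genes, against 21416 to 21833 in control libraries. Without a filter on low counts, the median log2 fold change over all tested genes was 0.31, against 0.01 with the filter. Over the tested macrophage and monocyte markers, with the filter, the median was 2.95. Of 16 macrophage and monocyte markers, 9 were tested and 8 were higher in senescent MAFs, none lower, against 36.2% higher among all tested genes. *Itgam*, *Laptm5* and *Cx3cr1* had at most 1 count in a control library. These genes passed the filter only through the senescent libraries, so a call of lower was not possible for them. *Ptprc* and *Lyz2*, each with 7 counts in control replicate 2, were below the filter there and also needed senescent libraries to be tested. The summed level of the 16 markers was 6.32 to 7.17 CPM in control and 15.6 to 18.1 CPM in senescent libraries. Of the defining markers, *Ptprc* (CD45) rose from 0.181 to 1.39 CPM, *Csf1r* from 1.99 to 3.91 CPM and *Itgam* from 0.00681 to 0.504 CPM, while *Adgre1* (F4/80) had at most 10 counts in a library and was not tested. *C1qc* was at 0 in every library, and *C1qa*, *C1qb*, *Tyrobp* and *Fcgr1* had at most 2 counts in any. Markers of endothelial cells, which also carry TLR4, summed to 2.53 to 2.93 CPM in control and 8.15 to 8.59 CPM in senescent libraries. Of these, 5 of 6 were tested and all 5 were higher. *Cdh5* and *Vwf*, with at most 9 counts in a control library, likewise passed the filter only through the senescent libraries. *Kdr*, with 8 counts in control replicate 3, was below the filter there and also needed senescent libraries to be tested. The part of such cells in the values of *Tlr4*, *Ly96* and *Cd14* was not tested.

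**Figure D2:**
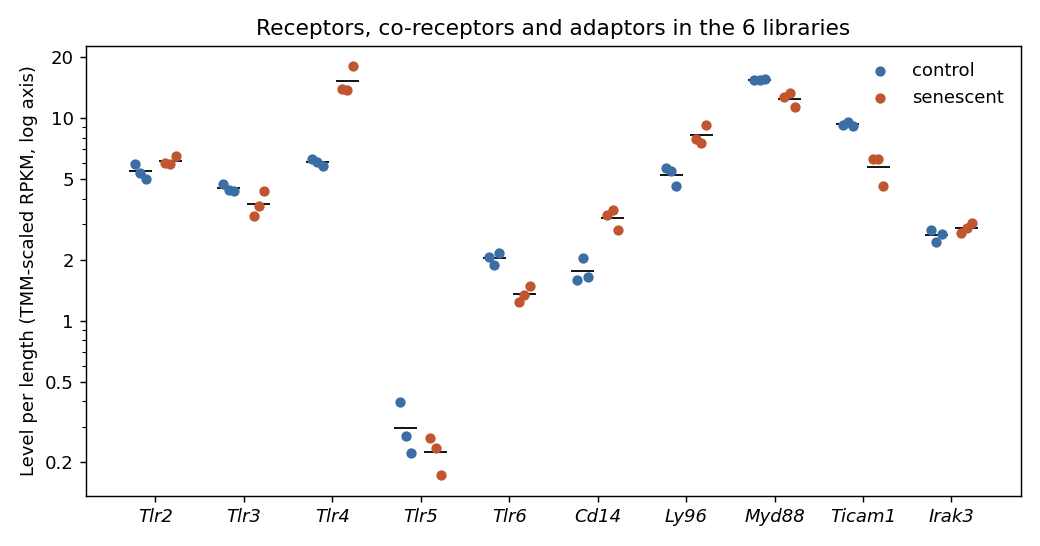
Level per length (RPKM, TMM-scaled, log axis) of the 10 members in each library, with lines at the group means (n = 3). *Tlr4*, *Cd14* and *Ly96* lie higher in all senescent libraries, and *Tlr6*, *Myd88* and *Ticam1* lie lower.

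*Tlr2* and *Tlr6* together encode a receptor for diacylated lipopeptides, and of these *Tlr6* fell whereas *Tlr2* did not pass the test. *Tlr2* (ENSMUSG00000027995, chromosome 3 from 83836272 to 83841767) was at 17.9, 16.2 and 15.1 CPM in control replicates 1, 2 and 3 and at 18.0, 17.9 and 19.6 CPM in senescent replicates 1, 2 and 3. Control replicate 1 lay above senescent replicate 2, so the groups overlapped, and the log2 fold change of 0.17 (95% interval from -0.03 to 0.38) did not pass the test (adjusted p = 0.107, edgeR). With scaling by library size alone, *Tlr2* passed (adjusted p = 0.0334, edgeR). *Tlr6* (ENSMUSG00000051498, chromosome 5 from 64953106 to 64960048) was at 5.35, 4.92 and 5.60 CPM in control and at 3.23, 3.48 and 3.87 CPM in senescent MAFs. All senescent libraries were below all control libraries, with a log2 fold change of -0.58 ± 0.11 (SE, adjusted p = 0.00168, edgeR).

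*Tlr1*, the other partner of *Tlr2*, is not a member but lies beside *Tlr6* on chromosome 5, with 20344 bases between the genes. It had 90, 102 and 82 counts in control and 33, 33 and 52 counts in senescent libraries, and its log2 fold change was -1.67 ± 0.18 (SE, adjusted p = 8.10e-05, edgeR). Thus both partner genes fell. Of all stretches of 100 bases (the read length) in annotated *Tlr6* transcripts, 7.09% also occur in *Tlr1*, and the counting of reads that map to several places is not stated, so the split of those reads is uncertain.

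*Tlr3* (ENSMUSG00000031639, chromosome 8 from 45395665 to 45410608) encodes the endosomal receptor for double-stranded RNA. It was at 20.8, 19.4 and 19.2 CPM in control and at 14.4, 16.2 and 19.1 CPM in senescent MAFs. The groups did not overlap, but senescent replicate 3 lay just below the lowest control library. The log2 fold change was -0.25 (unadjusted p = 0.0494), and it did not pass the test (adjusted p = 0.0680, edgeR). Without senescent replicate 3 it was -0.36 and passed (adjusted p = 0.000240, edgeR), as it did without a filter on low counts (adjusted p = 0.0444, edgeR). Exons of an antisense gene on the other strand cover 7.32% of the exonic bases of *Tlr3*, and the strand setting of the counting is not stated.

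*Tlr5* (ENSMUSG00000079164, chromosome 1 from 182954788 to 182976044), the flagellin receptor gene, was the least abundant member. It was at 1.90, 1.29 and 1.06 CPM in control and at 1.26, 1.14 and 0.829 CPM in senescent MAFs, and the groups overlapped. Its log2 fold change was -0.41 with a 95% interval from -0.999 to 0.18 (adjusted p = 0.180, edgeR), so that the interval reached from a 2-fold loss to a small gain. Its coefficient of variation over the control libraries, 30.7%, was the largest among the members.

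*Myd88* (ENSMUSG00000032508, chromosome 9 from 119335934 to 119341411) encodes the adaptor that most Toll-like receptors share with interleukin-1 receptors. It was at 39.6, 39.4 and 40.1 CPM in control, a coefficient of variation of 0.845%, and at 32.7, 34.0 and 29.0 CPM in senescent MAFs. All senescent libraries were lower, and the log2 fold change was -0.31 ± 0.07 (SE, adjusted p = 0.00561, edgeR). Exons of *Acaa1a* on the opposite strand cover 11.3% of its exonic bases.

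*Ticam1* (ENSMUSG00000047123, chromosome 17 from 56269319 to 56276786), whose E-box is shown above, encodes TRIF. It was at 27.7, 28.6 and 27.2 CPM in control and at 18.8, 18.8 and 13.7 CPM in senescent MAFs. Senescent replicate 3 was the lowest library and all senescent libraries were below the controls. The log2 fold change was -0.70 ± 0.12 (SE, adjusted p = 0.00129, edgeR), the largest decrease among the members. It stayed between -0.77 and -0.56 when any 1 library was left out.

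*Irak3* (ENSMUSG00000020227, chromosome 10 from 120141648 to 120202130) encodes IRAK-M, a kinase-like protein that restrains signaling from MYD88. It was at 10.2, 8.97 and 9.89 CPM in control and at 9.97, 10.5 and 11.1 CPM in senescent MAFs. The groups overlapped, and the log2 fold change of 0.12 (95% interval from -0.08 to 0.32) did not pass the test (adjusted p = 0.256, edgeR). Exons of *Tmbim4* and of an antisense gene, both on the opposite strand, cover 5.22% and 0.762% of its exonic bases.

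Levels of different genes were compared per length, as RPKM (CPM divided by the length of the gene's exons in kilobases, as the table gives it). In control MAFs the order was *Myd88* at 15.4, *Ticam1* at 9.29, *Tlr4* at 6.04, *Tlr2* at 5.44, *Ly96* at 5.24, *Tlr3* at 4.50, *Irak3* at 2.64, *Tlr6* at 2.03, *Cd14* at 1.75 and *Tlr5* at 0.296 RPKM. Neighbours from *Tlr4* to *Tlr3*, and *Tlr6* and *Cd14*, overlapped between libraries. In senescent MAFs the order was *Tlr4* at 15.2, *Myd88* at 12.4, *Ly96* at 8.20, *Tlr2* at 6.14, *Ticam1* at 5.72, *Tlr3* at 3.77, *Cd14* at 3.22, *Irak3* at 2.86, *Tlr6* at 1.36 and *Tlr5* at 0.225 RPKM. Here *Tlr2* overlapped with *Ticam1*, *Tlr3* with *Cd14*, and *Cd14* with *Irak3*. *Tlr4* thus moved from the third to the first place, and its lowest senescent library, at 13.7 RPKM, was above the highest of *Myd88*, at 13.2 RPKM.

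The make-up of the 5 receptors does not depend on the scaling between libraries. *Tlr4* held 33.0 ± 0.766% of their summed level per length in control and 56.8 ± 1.95% in senescent MAFs (SD, n = 3 per group). The share of *Tlr6* was 11.1 ± 0.975% in control and 5.10 ± 0.246% in senescent MAFs. *Tlr3* held 24.6 ± 0.241% and 14.1 ± 0.735%, and *Tlr2* held 29.7 ± 1.03% and 23.1 ± 1.55%. Shares sum to a fixed total, so the lower share of *Tlr2* stood beside a level that did not fall.

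**Figure D3:**
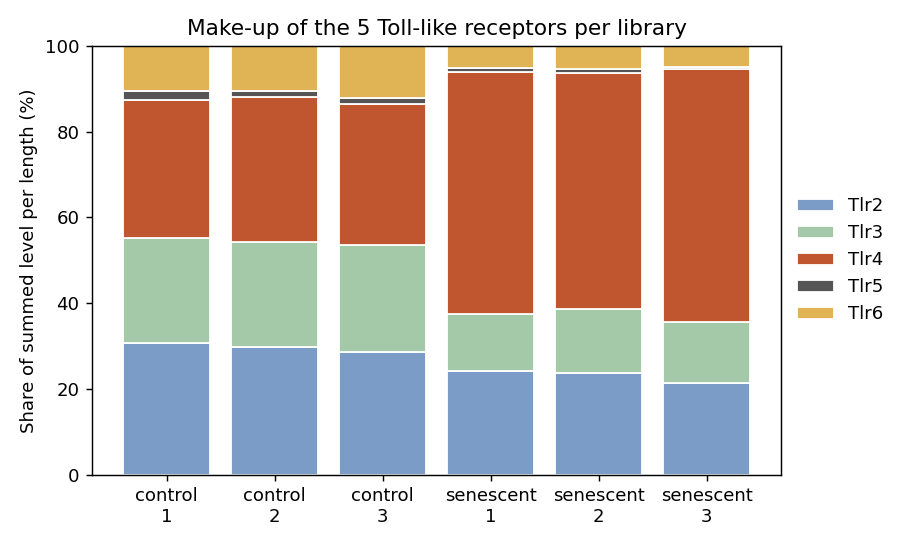
Share (%) of each of 5 Toll-like receptor genes in their summed level per length (RPKM), for each control and senescent library. The *Tlr4* segment is between 32.2% and 33.8% in control and between 55.1% and 58.9% in senescent libraries.

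Ratios of partner genes within a library were compared for 5 pairs, per length, with a two-sided exact permutation test. This test cannot give a p below 0.1 with 3 samples against 3, so no pair could reach 0.05. *Tlr4* to *Ly96* was 1.11, 1.11 and 1.25 in control and 1.76, 1.83 and 1.94 in senescent libraries (exact permutation p = 0.1, adjusted p = 0.125 over the 5 pairs). The receptor gene thus rose more than the gene of its lipid-binding partner in each senescent library. *Tlr4* to *Cd14* was 3.93, 2.97 and 3.53 in control and 4.15, 3.91 and 6.40 in senescent libraries, which overlapped (exact permutation p = 0.2, adjusted p = 0.2). Its log2 difference of 0.44 was 0.22 without senescent replicate 3. *Tlr2* to *Tlr6* went from a geometric mean of 2.67 to 4.53, with no overlap (exact permutation p = 0.1, adjusted p = 0.125).

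*Ticam1* to *Myd88* was 0.601, 0.624 and 0.584 in control and 0.495, 0.476 and 0.408 in senescent libraries, with no overlap (exact permutation p = 0.1, adjusted p = 0.125). The TRIF gene was thus lower relative to the MYD88 gene in senescent MAFs, while both fell. *Irak3* to *Myd88* went from a geometric mean of 0.171 in control to 0.231 in senescent libraries, also with no overlap (exact permutation p = 0.1, adjusted p = 0.125).

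**Figure D4:**
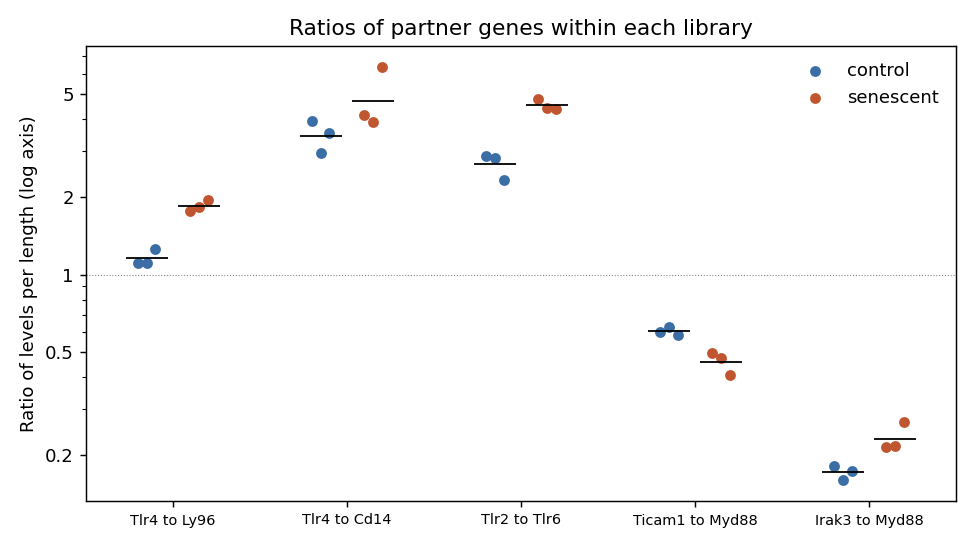
Ratios of levels per length (log axis) for 5 pairs of partner genes in each library, with lines at the geometric means of 3 libraries per group. The groups are apart in every pair other than *Tlr4* to *Cd14*.

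Other genes of the pathway were followed in 8 lists with 68 genes, of which 51 were tested. In senescent MAFs 30 of them rose and 16 fell, against 36.2% higher and 34.1% lower among all tested genes. The median log2 fold change of the 51 was 0.34. Those that rose include genes, named below, that passed the filter only through the senescent libraries, so a call of lower was not possible for them. Among the 7 other Toll-like receptors, *Tlr1* fell and *Tlr7*, an endosomal receptor for single-stranded RNA, was at 1.46 and 1.21 CPM and did not pass (adjusted p = 0.361, edgeR). *Tlr13*, a receptor for bacterial ribosomal RNA, had 0 counts in each control library, against 17, 11 and 17 counts in senescent replicates 1, 2 and 3. This was below the filter for the test and at least 3.77-fold higher than the limit of 3 counts per library that 0 counts allow. *Tlr8*, *Tlr9*, *Tlr11* and *Tlr12* had at most 7 counts in any library, and differences in them were not detectable at this depth.

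Both tested adaptors outside the members rose. *Tirap*, which bridges TLR2 and TLR4 to MYD88, went from 24.0 to 30.4 CPM, a log2 fold change of 0.34 (adjusted p = 0.00279, edgeR). *Sarm1*, an adaptor with NAD-cleaving activity, changed by 0.69 on the log2 scale (adjusted p = 0.00307, edgeR). *Ticam2*, which bridges TLR4 to TRIF, had 4 counts in every control library and 9, 20 and 17 counts in senescent replicates 1, 2 and 3 and was not tested.

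Of 5 tested co-receptors and chaperones, 4 fell. *Hsp90b1*, which encodes the chaperone GRP94 that folds most Toll-like receptors, changed by -0.82 on the log2 scale (adjusted p = 3.85e-05, edgeR). *Cnpy3*, its cofactor, changed by -0.38, and *Unc93b1*, which carries endosomal receptors such as TLR3 from the endoplasmic reticulum, by -0.72. *Cd36*, a scavenger receptor that works with TLR2 and TLR6, rose from 0.0997 to 0.930 CPM (log2 fold change 3.19, adjusted p = 1.78e-05, edgeR). With at most 7 counts in a control library, *Cd36* passed the filter only through the senescent libraries.

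Of 17 kinases and ubiquitin ligases below the adaptors, 9 rose and 6 fell. *Irak2*, which sustains signaling in the MYD88 complex, rose from 12.6 to 38.7 CPM (log2 fold change 1.61, adjusted p = 3.68e-07, edgeR). *Ikbkg*, the NEMO subunit of the IKK complex, changed by 0.99. *Peli2*, a ubiquitin ligase for IRAK proteins, changed by -1.41, and *Ikbke*, a kinase of the TRIF route, by -1.05. *Irak4* and *Irak1*, the other kinases of the MYD88 complex, were singled out after their values were seen, and changed by -0.67 and 0.15 (adjusted p = 0.000162 and 0.0302, edgeR). The IRAK genes thus went in different directions.

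**Figure D5:**
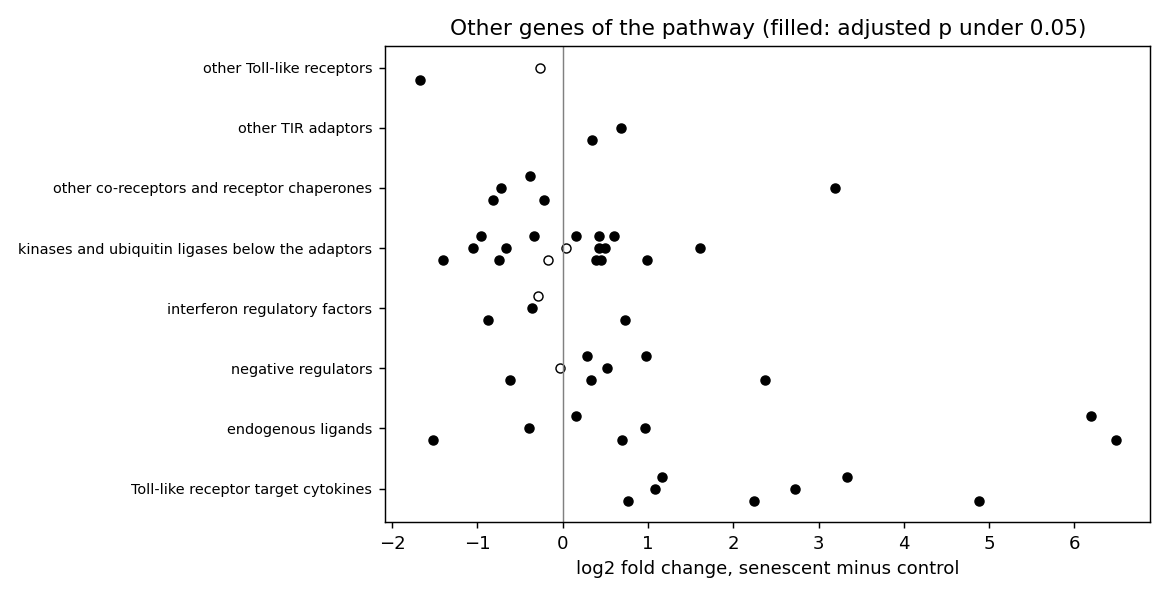
Log2 fold change (senescent minus control, x axis) of the 51 tested pathway genes outside the members, by list, with filled points at an adjusted p under 0.05. Cytokine and other targets all lie above 0, from 0.76 to 4.88, and the remaining lists with more than 2 tested genes hold genes on both sides of 0.

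Of 4 tested interferon regulatory factors, *Irf7* rose (log2 fold change 0.73), *Irf1* and *Irf3* fell (-0.88 and -0.36) and *Irf5* did not pass (adjusted p = 0.0687, edgeR). Of 7 tested negative regulators, 5 rose and 1 fell. Among those that rose, *Sigirr*, with at most 7 counts in a control library, passed the filter only through the senescent libraries. *Tnfaip3*, which encodes the deubiquitinase A20, rose from 6.23 to 32.3 CPM, a log2 fold change of 2.38 (adjusted p = 7.97e-08, edgeR). *Tollip* and *Il1rl1* changed by 0.52 and 0.34, and *Tnip1*, whose product works with A20, by -0.62.

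Among 7 tested genes of endogenous ligands, 5 rose and 2 fell. *Saa3*, a serum amyloid gene, rose from 0.104 to 8.01 CPM (adjusted p = 6.89e-08, edgeR), and *S100a8* from 2 counts over the control libraries to between 77 and 109 counts in each senescent library. Its partner *S100a9* had at most 2 counts in a library. *Saa3* and *S100a8*, with at most 9 counts in a control library, passed the filter only through the senescent libraries. *Tnc*, the matrix protein tenascin C, changed by 0.96, and *Hmgb1*, a chromatin protein that can be released from cells, by -1.52. All 7 tested target genes rose, by 0.76 to 4.88 on the log2 scale, including *Ptgs2* (3.33), *Cxcl2* (4.88), *Ccl5* (2.24) and *Ccl2* (2.73). *Cxcl2*, with at most 4 counts in a control library, passed the filter only through the senescent libraries. *Tnf*, *Il1b*, *Il12b* and *Ifnb1* had at most 3 counts in any library, and changes in them were not detectable at this depth. Many signals other than Toll-like receptors induce these target genes, and the samples hold no measure of receptor activity.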

How the data were processed

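Gene counts of 3 control and 3 senescent MAF samples were used. The authors ran the MAPRSeq workflow, in which STAR aligned paired reads of 100 bases (mm10) and Subread assigned them to genes, and deposited the counts without normalization. For these samples the methods give no version of STAR or Subread, no strand setting and no treatment of multi-mapping reads. The length of each gene's exons, in bases, was taken from the deposited table.

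Genes were kept by filterByExpr (17589 of 43346), scaled by TMM, and compared with the robust quasi-likelihood test of edgeR 4.0.16 in R 4.3.3 (two-sided, group as the only term), with Benjamini-Hochberg adjustment over all tested genes. CPM and RPKM used the totals of all genes. Standard errors came from the log2 fold change and its F statistic. Ratios had 0.5 counts added to each gene. A count of 0 allows 3 counts, or a mean of 0.0572 CPM in control and 0.0425 CPM in senescent MAFs, and such limits cover counting error only. In simulated data over 17209 genes for control against senescent, 85 of 96 genes changed by 1 and 100 of 100 changed by 2 on the log2 scale were recovered, with 14 false calls. Only 200 genes were given a change, whereas 70.3% of tested genes were called in the data, and no change below 1 was simulated. The simulation therefore does not cover scaling with so many changed genes, or recovery of smaller changes.

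Members and lists were chosen with earlier results of these data known. Named are all members, all other receptors and adaptors, and the 4 smallest p of each other pathway list. The first 4 markers are named for the fibroblast list and for the macrophage and monocyte list only. Other markers, *Irak1*, *Irak4*, *Sigirr* and genes near 0 counts were named after values were seen. *Adgre1* was found by its identifier. Lists of dendritic, T, B and mast cell, neutrophil and keratinocyte markers summed to 1.10 to 1.76, 0.0200 to 0.0335 and 16.2 to 17.0 CPM in control and 7.18 to 7.52, 1.34 to 1.44 and 23.2 to 23.9 CPM in senescent libraries. Single genes carried these sums: *Zbtb46* (mean 1.25 and 6.74 CPM), *S100a8* (0.0112 and 1.31 CPM, also listed as a ligand), and, among keratinocyte markers, *Ivl* (0 and 14.0 CPM) and *Trp63* (13.1 and 4.17 CPM).

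The alternatives were RLE scaling, library size alone, no filter beyond 1 count, at least 10 counts in every library, DESeq2 1.42.0 and edgeR's exact test. Further alternatives were the cutoffs in the study's methods, a term for the replicate number, and each library left out. BMAL1-ChIP-seq and KO samples were not analysed here.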

Additional observations from a re-analysis of the deposited data

How the results depend on the processing

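No member changed direction under any of the 14 alternatives. The 6 called members kept their calls under the 13 that retain the threshold of an adjusted p under 0.05. The cutoffs in the study's methods (more than 2-fold, p under 0.05 before adjustment) ask for a larger change. With them, members called higher fell from 3 to 1 and members called lower from 3 to 0. The other pathway genes called went from 30 to 11 higher and from 16 to 4 lower. *Tlr2* passed with scaling by library size alone, and *Tlr3* without a filter or without senescent replicate 3, as given above. With each library left out in turn, 3 members were higher and 3 to 4 lower, and 28 to 30 pathway genes were higher and 13 to 17 lower. Log2 differences of ratios then ranged from 0.64 to 0.73 for *Tlr4* to *Ly96*, 0.22 to 0.58 for *Tlr4* to *Cd14*, 0.66 to 0.82 for *Tlr2* to *Tlr6*, -0.45 to -0.31 for *Ticam1* to *Myd88* and 0.33 to 0.49 for *Irak3* to *Myd88*.

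Deviations of same-numbered libraries from their group means had correlations from -0.15 to 0.14, with 1 of 3 pairs over 0.1. Such correlations, from 3 libraries per group, cannot decide whether the numbers pair the samples. With a replicate block, 3 members were higher and 3 lower, and 27 and 16 pathway genes. In that block, *Tlr4* changed by 1.32 on the log2 scale (adjusted p = 0.000149, edgeR), and no member's call changed. Sign flips over 3 pairs cannot give an exact permutation p below 0.25, which every ratio had.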
